A study of Mus musculus with 6 samples.

Results

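Circular RNAs (circRNAs) of 42 nuclear genes were followed in mouse brain. The genes encode proteins of mitochondria or of their transport and biogenesis. In a circRNA the 3′ end of one exon is spliced backwards to the 5′ end of the same or an earlier exon, and reads across that back-splice junction identify the circle. The genes were taken by name from a fixed list, and every circRNA that the deposited table assigns to one of them was used. Of the 42 genes, 29 (69.0%) had at least 1 listed circRNA, 68 circRNAs in all, out of 5414 named host genes and 18136 circRNAs in the table. Of all annotated protein-coding genes, 23.2% were listed as hosts. The 42 genes were chosen with earlier results of these data known, so the 69.0% cannot be read as a trait of mitochondrial genes. The groups were 2 sets of 3 libraries: brain RNA labelled A53T, from a transgenic mouse model of Parkinson disease named for an alpha-synuclein mutation, and brain RNA labelled WT (wild type). The labels give no promoter or copy number of the transgene, no strain, age or sex, and no statement that each library is its own animal. The p-values below therefore reflect the spread between libraries, part or all of which may be technical. The tissue label reads brain, and the series text names the substantia nigra of the midbrain.

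Most mitochondrial proteins are encoded in the nucleus, made in the cytosol and imported into the organelle. They build the respiratory chain and the ATP synthase, the enzymes of the TCA cycle, and the machinery that fuses, divides, moves and repairs mitochondria. Neurons depend on oxidative phosphorylation and on the transport of mitochondria into axons, and impaired complex I and impaired clearance of damaged mitochondria are well-known themes of Parkinson disease. A circRNA is made from the precursor RNA of its host gene, and its junction reads give neither the level of the linear mRNA nor that of the protein.

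The circles on which the results turn are shown first. They are those of the 4 genes read deeply enough for a test. Positions are those of the deposited table (mm39). The sequences are those of the GENCODE M21 transcripts that the table names, read 5′ to 3′. Ogdh encodes the E1 subunit of the 2-oxoglutarate dehydrogenase complex, a rate-controlling enzyme of the TCA cycle. Its 2 circles of exons 3 and 4 lie on the plus strand at chr11:6263788-6267080 and chr11:6263788-6266855 and differ in which of 2 alternative exons 4 they hold, given in capitals.
Ogdh exon 3 with the 103 nt exon 4: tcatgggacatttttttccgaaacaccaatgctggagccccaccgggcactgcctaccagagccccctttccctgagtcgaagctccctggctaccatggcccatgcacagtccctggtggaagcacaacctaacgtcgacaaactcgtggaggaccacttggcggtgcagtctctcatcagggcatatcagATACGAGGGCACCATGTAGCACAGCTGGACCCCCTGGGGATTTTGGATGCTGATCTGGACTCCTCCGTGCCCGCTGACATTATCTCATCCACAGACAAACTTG
Ogdh exon 3 with the 91 nt exon 4: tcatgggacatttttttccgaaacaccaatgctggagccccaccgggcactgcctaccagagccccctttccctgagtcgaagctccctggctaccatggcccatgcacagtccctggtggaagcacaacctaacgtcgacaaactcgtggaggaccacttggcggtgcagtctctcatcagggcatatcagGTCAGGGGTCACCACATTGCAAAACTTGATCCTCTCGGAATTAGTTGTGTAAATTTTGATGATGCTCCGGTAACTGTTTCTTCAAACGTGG
For the other genes the junction of the most read circle is shown, 20 nt on each side, with the start of the circle's first exon in capitals. Atp5c1 encodes the gamma subunit in the central stalk of the ATP synthase (chr2:10063807-10069122, minus strand). Ndufs1 encodes the largest core subunit of complex I, which carries iron-sulfur clusters (chr1:63187555-63187730, minus strand). Rhot1 encodes Miro1, the outer membrane GTPase that links mitochondria to motor adaptors (chr11:80114729-80118158, plus strand).
Atp5c1 exons 4 to 8: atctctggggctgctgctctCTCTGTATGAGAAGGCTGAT
Ndufs1 exon 16: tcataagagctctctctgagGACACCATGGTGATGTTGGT
Rhot1 exons 3 to 6: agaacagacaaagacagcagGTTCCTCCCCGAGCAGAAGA
All 5 circles consist wholly of coding sequence in the named transcripts.

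The libraries held 29839 to 33313 junction reads in A53T and 25217 to 36390 in WT, so 1 read was worth 27.5 to 39.7 CPM (reads scaled to a common total of junction reads). No replicate pair agreed within sampling noise (chi-square over degrees of freedom 2.19 to 3.01). The neuronal marker genes fit the labelled tissue as far as circles show it: 10 of 11 were listed, with summed reads of 595 to 635 per A53T library and 508 to 836 per WT library. Of 12 dopaminergic neuron genes, Kcnj6 was listed, with 22 to 49 reads in A53T and 14 to 27 in WT, and Th and Slc6a3 were not. Microglial (0 of 7) and erythrocyte (0 of 5) genes gave no listed circle, and oligodendrocyte genes (2 of 8), astrocyte genes (3 of 8), cerebellar genes (1 of 5) and liver genes (1 of 5) gave 4, 23, 2 and 2 reads in all. In RNA from whole tissue, fewer cells of a type and less RNA per cell cannot be told apart.

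The question addressed here was which mitochondrial genes give circles in brain, and whether these differ between A53T and WT. The 29 listed genes, called mitochondrial hosts here, gave 427 reads over the 6 libraries, 0.225% of all junction reads. Their median was 6 reads per host, against 8 in all other named hosts. They took 0.225%, 0.242% and 0.195% of the reads of A53T replicates 1, 2 and 3, and 0.269%, 0.190% and 0.234% in WT replicates 1, 2 and 3. The groups overlapped, with a mean of 0.221 ± 0.024% in A53T and 0.231 ± 0.040% in WT (SD, n = 3 each), a difference smaller than the SD of either group. Ogdh, Atp5c1, Ndufs1, Rhot1, Oma1 and Ndufv2 held 285 of the 427 reads (66.7%), and 18 of the 29 genes had 7 reads or fewer. Ogdh stood highest of the 29, at rank 423 among the 5414 hosts. Circles of 6 genes were read in all 6 libraries, and those of 8 genes in 1 library only.

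**Figure D1:**
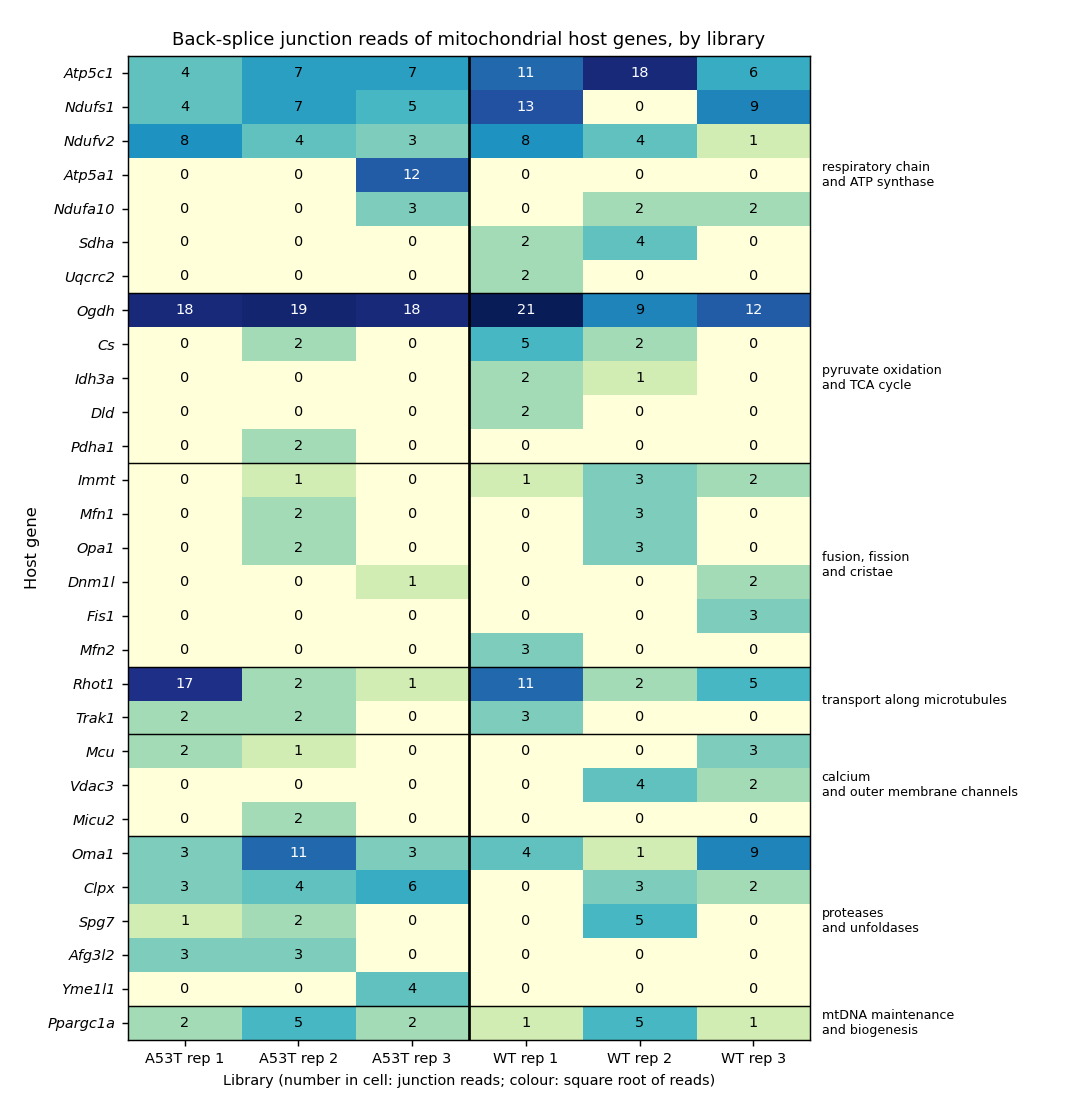
Junction reads summed over the circRNAs of each of the 29 listed mitochondrial host genes (rows, grouped by role) in each of the 6 libraries (columns, A53T left of WT); the number in each cell is the read count and the colour its square root. Ogdh is read in every library, with 18 to 19 reads in A53T and 9 to 21 in WT, while most genes are at 0 in several libraries.

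The respiratory chain and ATP synthase genes gave 15 circRNAs from 7 of 9 genes, with 16, 18 and 30 reads in A53T replicates 1, 2 and 3 and 36, 28 and 18 in WT. Atp5c1 had 4, 7 and 7 reads in A53T and 11, 18 and 6 in WT. Scaled to library size, that was 137, 217 and 212 CPM in A53T and 328, 489 and 238 CPM in WT. In CPM all A53T libraries lay below all WT libraries, by a gap (217 to 238 CPM) of less than 1 read. In reads the groups overlapped, since A53T replicates 2 and 3 had 7 each and WT replicate 3 had 6. The fitted log2 fold change was -0.90 (standard error 0.63, 95% interval -2.17 to 0.37), short of the threshold when all host genes were tested together (edgeR quasi-likelihood, Benjamini-Hochberg adjusted p = 0.989). Of the 4 tested mitochondrial hosts, Atp5c1 was the 1 whose groups did not overlap in CPM, whereas 10.5% of all tested hosts had groups that did not. Nearly all its reads (50 of 53) came from the circle of exons 4 to 8. An annotated pseudogene, Atp5c1-ps, exists, so some of these reads could belong to a copy and the counts are uncertain.

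Ndufs1 gave 4 circles, with 4, 7 and 5 reads in A53T and 13, 0 and 9 in WT. WT replicate 2, the deepest library, had no read of any of them. A count of 0 there allows up to 3 reads or 82.4 CPM, whereas the other libraries lay between 137 CPM (A53T replicate 1) and 387 CPM (WT replicate 1). The mean was 168 ± 43 CPM in A53T and 248 ± 215 CPM in WT (SD, n = 3 each). The log2 fold change was -0.51 (standard error 0.81, 95% interval -2.13 to 1.11; edgeR quasi-likelihood, adjusted p = 0.991), and it turned to 0.06 without WT replicate 1. The single-exon circle of exon 16 had 16 reads, and circles of exons 5 to 9 and 5 to 8, which share their start, had 12 and 8. In the most read circle, of exon 16, A53T libraries had 3, 2 and 4 reads and WT libraries 4, 0 and 3. In the circle of exons 5 to 9, A53T libraries had 1, 1 and 0 reads and WT libraries 5, 0 and 5.

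The other complex I genes were Ndufv2, a core subunit with an iron-sulfur cluster, and Ndufa10, an accessory subunit. Ndufv2 had 8, 4 and 3 reads in A53T and 8, 4 and 1 in WT, 21 of its 28 reads from the circle of exons 4 and 5. Ndufa10 had 0, 0 and 3 reads in A53T and 0, 2 and 2 in WT. Atp5a1, the alpha subunit of the ATP synthase, had 12 reads of 1 circle in A53T replicate 3 and none in the other 5 libraries. Sdha, the flavoprotein subunit of complex II, had 0 reads in A53T and 2, 4 and 0 in WT. Uqcrc2, a core subunit of complex III, had 0 reads in A53T and 2 in WT, all in replicate 1. Cox10 and Cox15, which make the heme A of cytochrome oxidase, had no listed circle.

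All 5 genes of pyruvate oxidation and the TCA cycle had a listed circle, with 18, 23 and 18 reads in A53T and 30, 12 and 12 in WT. Ogdh made up most of them, with 18, 19 and 18 reads in A53T and 21, 9 and 12 in WT. In A53T replicate 2, 5 of the 19 reads were called on the antisense strand, which leaves 14. With all listed reads, levels were 583 ± 35 CPM in A53T and 449 ± 192 CPM in WT (SD, n = 3 each). Without the antisense reads, A53T replicate 2 stood at 434 CPM and the A53T mean at 531 ± 91 CPM. Either way the A53T libraries lay within the WT range, whose lowest value came from WT replicate 2. The log2 fold change, antisense reads included, was 0.39 (standard error 0.44, 95% interval -0.49 to 1.26), and did not pass the test (edgeR quasi-likelihood, adjusted p = 0.989). Cs, the citrate synthase gene, had 0, 2 and 0 reads in A53T and 5, 2 and 0 in WT. Idh3a, a catalytic subunit of NAD-dependent isocitrate dehydrogenase, had 0 reads in A53T and 3 in WT, Dld, the shared E3 subunit of the 2-oxo acid dehydrogenases, 0 in A53T and 2 in WT, and Pdha1, the E1 alpha subunit of pyruvate dehydrogenase, 2 in A53T and 0 in WT.

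**Figure D2:**
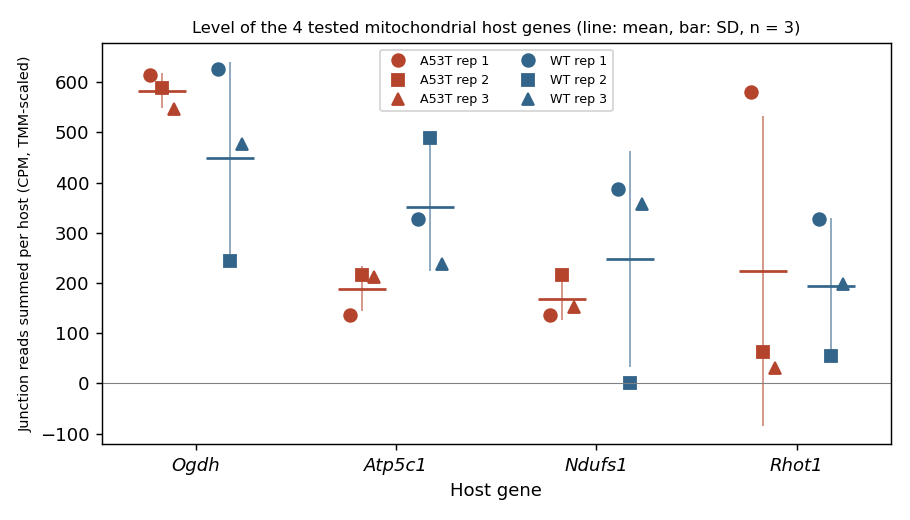
Level of the 4 tested mitochondrial host genes, in junction reads summed per gene (CPM after TMM scaling); points are libraries, horizontal lines group means and vertical bars the SD (n = 3), A53T left of WT. Atp5c1 lies at 137 to 217 CPM in A53T and 238 to 489 CPM in WT, while the groups of the other 3 genes overlap.

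The Ogdh circles combined 2 start sites with 2 ends. Both ends are annotated ends of alternative exons 4, of 103 nt and 91 nt, which lie 122 nt apart and differ in length by 12 nt. One start is that of exon 3 (192 nt). The other, at position 6261009 of chromosome 11, lies inside the 16588 nt intron 2, 2779 nt before exon 3, and no annotated Ogdh exon of GENCODE M21 starts there. All other ends of Ogdh circles on the sense strand fell on annotated exon borders. With the 103 nt exon 4, the circle that starts at exon 3 had 10, 9 and 7 reads in A53T and 7, 1 and 7 in WT, and the circle that starts in intron 2 had 8, 1 and 6 in A53T and 10, 6 and 5 in WT. With the 91 nt exon 4, reads were fewer: 3 in A53T and 5 in WT from exon 3, and 2 in A53T and 1 in WT from intron 2. The longer exon 4 thus ended 77 of 88 of these reads (87.5%). The inner part of the circles that start in intron 2 was not observed, and the table gives their whole span of 6072 nt or 5847 nt as predicted length.

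The 2 abundant Ogdh circles had fitted differences of opposite sign. The log2 fold change was 0.75 for the circle of exons 3 and 4 (standard error 0.73, 95% interval -0.72 to 2.23), at 277 ± 60 CPM in A53T and 168 ± 126 CPM in WT. It was -0.44 for the circle that starts in intron 2 (standard error 0.76, 95% interval -1.98 to 1.10), at 162 ± 120 CPM in A53T and 218 ± 66 CPM in WT (SD, n = 3 each). Neither passed the test over all circRNAs (edgeR quasi-likelihood, Benjamini-Hochberg adjusted p = 0.993 for each). The first value ran from 0.24 without WT replicate 2 to 1.22 without WT replicate 3, and the second turned to 0.05 without A53T replicate 2, where the signs were no longer opposite. The intron 2 start took 8 of 18, 1 of 12 and 8 of 16 reads in A53T and 11 of 21, 6 of 9 and 5 of 12 in WT, or 34.3 ± 22.6% in A53T and 53.6 ± 12.5% in WT (SD, n = 3 each). The groups overlapped (two-sided exact permutation test, p = 0.4). The difference of -19.3 percentage points was -6.35 points without A53T replicate 2, with a range of -27.2 to -6.35 points when single libraries were left out. This share was examined after the reads had been seen, and with 3 libraries a group the test cannot give less than 0.1.

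**Figure D3:**
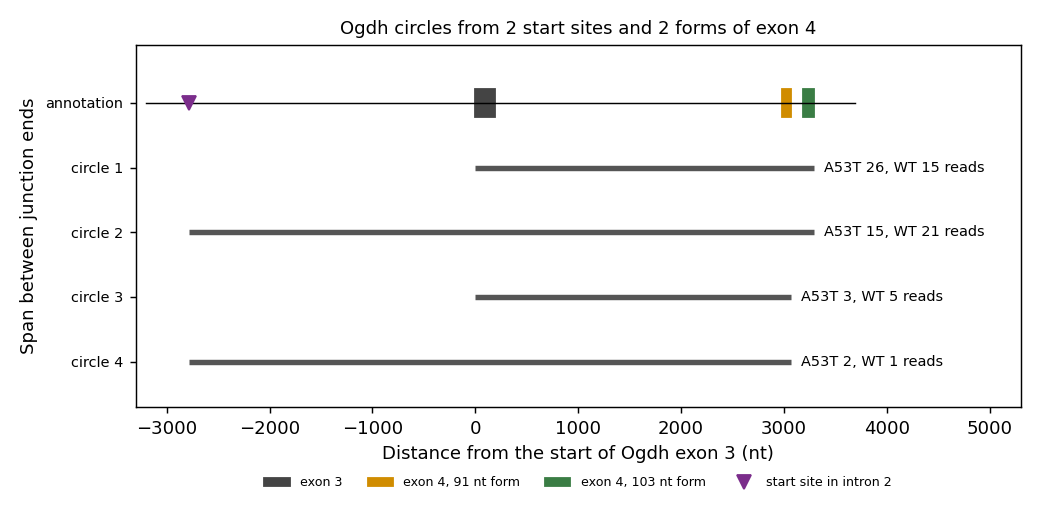
Spans of the 4 Ogdh circles that combine 2 start sites with the 2 forms of exon 4, drawn to scale against the distance from the start of exon 3 in nt; the upper line shows exon 3, the 91 nt and 103 nt exons 4 and the start site in intron 2, and each bar carries its reads summed over 3 A53T and 3 WT libraries. The circles that end at the 103 nt exon 4 hold 26 and 15 reads in A53T and 15 and 21 in WT.

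Genes of fusion, fission and cristae gave 8 circRNAs from 6 of 7 genes and 26 reads, 0, 5 and 1 in A53T and 4, 9 and 7 in WT. No single gene of the group had more than 7 reads. Immt, the core subunit of the MICOS complex at crista junctions, had 0, 1 and 0 reads in A53T and 1, 3 and 2 in WT. The fusion GTPase genes Mfn1 and Opa1, of the outer and inner membrane, each had 2 reads in A53T replicate 2 and 3 in WT replicate 2. Dnm1l, the fission GTPase, had 1 read in A53T and 2 in WT. Mfn2 and Fis1 had 0 reads in A53T and 3 in WT, each from 1 library, and Mff, a receptor for Dnm1l, had no listed circle. These genes were too thinly read for a test.

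Among the transport genes, Rhot1 had 17, 2 and 1 reads in A53T and 11, 2 and 5 in WT, spread over 5 circles. Replicate 1 was highest in both groups, and the 17 reads of A53T replicate 1 came from all 5 circles. The mean was 224 ± 309 CPM in A53T and 193 ± 137 CPM in WT (SD, n = 3 each). On the log2 scale A53T over WT stood at 0.19, with a standard error of 0.82 and a 95% interval of -1.45 to 1.84 (edgeR quasi-likelihood, adjusted p = 0.991). It was -0.18 with replicate numbers as a block and -0.29 without WT replicate 2. The circle of exons 3 to 6 had 4, 0 and 0 reads in A53T and 11, 1 and 2 in WT, whereas that of exons 12 to 14 had 5 reads in A53T replicate 1 and none elsewhere. Trak1, an adaptor between Miro and kinesin or dynein, had 2, 2 and 0 reads in A53T and 3, 0 and 0 in WT. The 2 reads in A53T replicate 2 were called on the antisense strand, at the same pair of positions as the 3 sense reads of WT replicate 1 (121193067 and 121221117 of chromosome 9). The antisense Ogdh circle likewise shared the position 6263788 with 2 sense circles. Trak2 had no listed circle.

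Of the calcium and channel genes, Mcu, the pore subunit of the calcium uniporter, had 2, 1 and 0 reads in A53T and 0, 0 and 3 in WT. Its regulator Micu2 had 2 reads in A53T and 0 in WT. Vdac3, an outer membrane channel with an annotated pseudogene, Vdac3-ps1, had 0 reads in A53T and 0, 4 and 2 in WT. Vdac1, Micu3 and Letm1 had no listed circle.

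The proteases and unfoldases gave 17 circRNAs from 5 of 6 genes, with 10, 20 and 13 reads in A53T and 4, 9 and 11 in WT. Oma1, the stress-activated protease that cleaves Opa1, had 6 circles, with 3, 11 and 3 reads in A53T and 4, 1 and 9 in WT. Of its circles, 3 began at exon 2 and 3 ended at exon 8. The most read, of exons 2 to 7, had 0, 4 and 3 reads in A53T and 3, 1 and 2 in WT. The circle of exons 2 to 8 had 1, 7 and 0 reads in A53T and 1, 0 and 0 in WT. Clpx, the unfoldase of the matrix protease ClpXP, had 3, 4 and 6 reads in A53T and 0, 3 and 2 in WT. The ranges of Clpx touched in reads, at 3, but not when scaled to library size, with 102, 124 and 182 CPM in A53T and 0, 81.5 and 79.4 CPM in WT. The most read Clpx circle, of exons 10 to 12, had 3, 2 and 1 reads in A53T and 0, 3 and 2 in WT. Each other Clpx circle had 2 or 3 reads, from a single A53T library and none in WT. Clpx had too few reads for the test. Groups that did not overlap were seen in 10.5% of all tested hosts, a share that leaves out genes that, like Clpx, missed the filter. The share among those genes was not counted. Spg7 had 1, 2 and 0 reads in A53T and 0, 5 and 0 in WT, and its partner in the m-AAA protease, Afg3l2, 3, 3 and 0 in A53T and 0 in WT. Yme1l1, of the i-AAA protease, had 4 reads in A53T replicate 3 and none in the other libraries. Lonp1 had no listed circle.

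Of the genes for mtDNA maintenance and biogenesis, Ppargc1a, which encodes the coactivator PGC-1alpha, had 2, 5 and 2 reads in A53T and 1, 5 and 1 in WT. Its main circle, exons 8 to 10, held 10 of the 16 reads. Polg, Twnk and Tfam, which replicate and package mtDNA, and the import genes Tomm70a and Timm44 had no listed circle.

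Over these genes, 0 of the 4 tested hosts passed the test, against 0.00% of all 1377 tested hosts (edgeR quasi-likelihood, Benjamini-Hochberg adjusted p under 0.05). Testing required 5 or more reads in 3 or more libraries, which 25 of the 29 listed hosts and 65 of the 68 circRNAs missed. At an unadjusted p under 0.05 there were also 0 of 4, against 4.58% of all hosts. DESeq2 called 0 of 1377 hosts, and 48 at an unadjusted p under 0.05. Of the 3 tested circRNAs, 0 passed, against 0.00% of 1214 (4.70% at an unadjusted p under 0.05), and DESeq2 called 0 circRNAs, with 51 at an unadjusted p under 0.05. The smallest unadjusted p of the 3 belonged to the Atp5c1 circle, at 158 ± 50 CPM in A53T and 354 ± 140 CPM in WT (SD, n = 3 each). Its groups did not overlap in CPM, as for 11.3% of all tested circRNAs. They overlapped in reads, with 4, 4 and 7 in A53T and 11, 18 and 6 in WT. The log2 fold change of this circle was -1.15 (standard error 0.63, 95% interval -2.42 to 0.12; edgeR quasi-likelihood, adjusted p = 0.991). The intervals of all 4 hosts held 0 and also a difference of 1 log2 unit in at least 1 direction, so they do not show that the groups are alike.

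**Figure D4:**
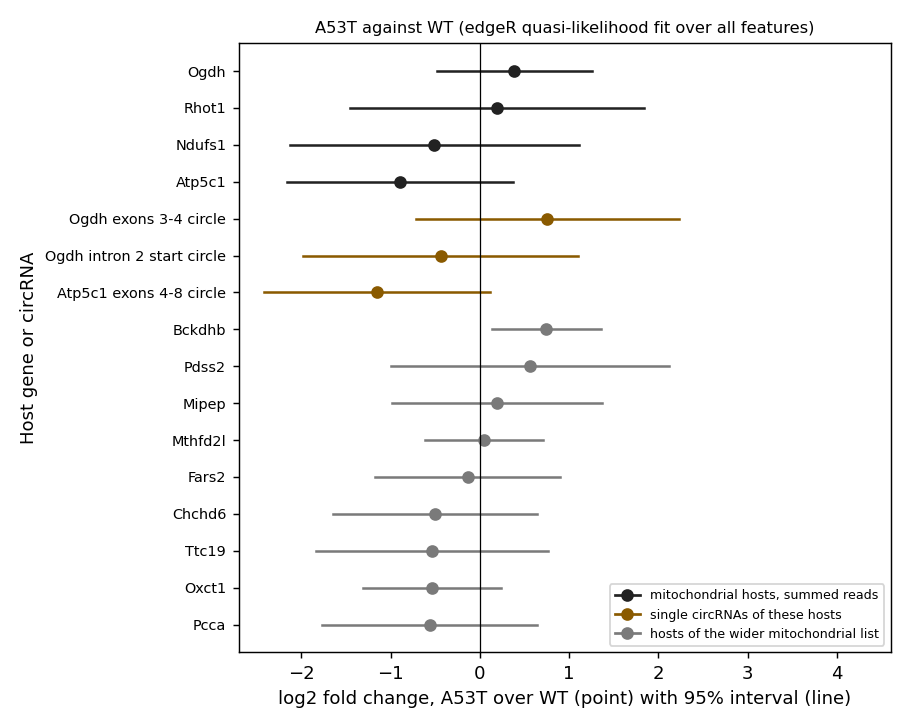
Log2 fold change of A53T over WT (points) with 95% intervals (lines) for the 4 tested mitochondrial hosts, the 3 tested circRNAs of these hosts and 9 named hosts of the wider mitochondrial list. Intervals of the mitochondrial hosts run from -2.17 (Atp5c1) to 1.84 (Rhot1), and the interval of Bckdhb, from 0.13 to 1.35, is the 1 that leaves out 0 before adjustment.

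Several hosts had circles in 1 group only. Of the 29 hosts, 5 were read in A53T only (Afg3l2, Atp5a1, Micu2, Pdha1 and Yme1l1) and 7 in WT only (Dld, Fis1, Idh3a, Mfn2, Sdha, Uqcrc2 and Vdac3). All 12 had 12 reads or fewer. Among mitochondrial hosts with up to 12 reads, 57.1% were read in 1 group only, and among all other hosts with up to 12 reads 60.2%.

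The circles of mitochondrial hosts were mostly exonic (52 of 68, 76.5%; 73.8% for all other named hosts), with 8 sense overlapping, 6 intronic and 2 antisense ones. All 52 exonic circles matched 1 run of exons of the named transcript. None used the first or the last exon of it, which was rare in other hosts too (52 and 10 of 12742 matched circles). Of the 52 exonic circles, 15 (28.8%) began at exon 2, as did 27.7% in other hosts. The median size of the 52 circles was 3 exons and 393 nt, predicted, against 4 exons and 572 nt in other hosts. Junction reads show only the ends, so inner exons and lengths are predicted. The introns beside them had a median length of 3693 nt upstream and 2742 nt downstream, against 8311 nt and 6575 nt in other hosts. In the wider list of mitochondrial genes described below, medians were 475 nt for the circle, 4660 nt upstream and 3760 nt downstream. Shorter circles and introns than in other hosts were thus not particular to the 29 genes. The 29 listed genes themselves had a median span of 34.9 kb, against 65.5 kb for the 5082 protein-coding genes listed as hosts. The 13 genes with no listed circle had a median span of 27.5 kb, and the transcript with most exons had a median of 12 exons, against 14 in the 29 listed genes. Circles of 1 host share its introns and are not independent, so these medians are a description and no test was made. By the annotated start codon of the named transcript, 9 of the 52 circles (17.3%) held a start codon, against 1658 of 12742 in other hosts. Among the 9 were 3 of Oma1 and 3 of Ndufv2. In the Ndufv2 circles of exons 4 and 5 and of exons 3 to 5, 9 nt each were coding by the named transcript. Whether other Ndufv2 transcripts have another start codon was not tested, so an excess over other hosts cannot be read from these counts.

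**Figure D5:**
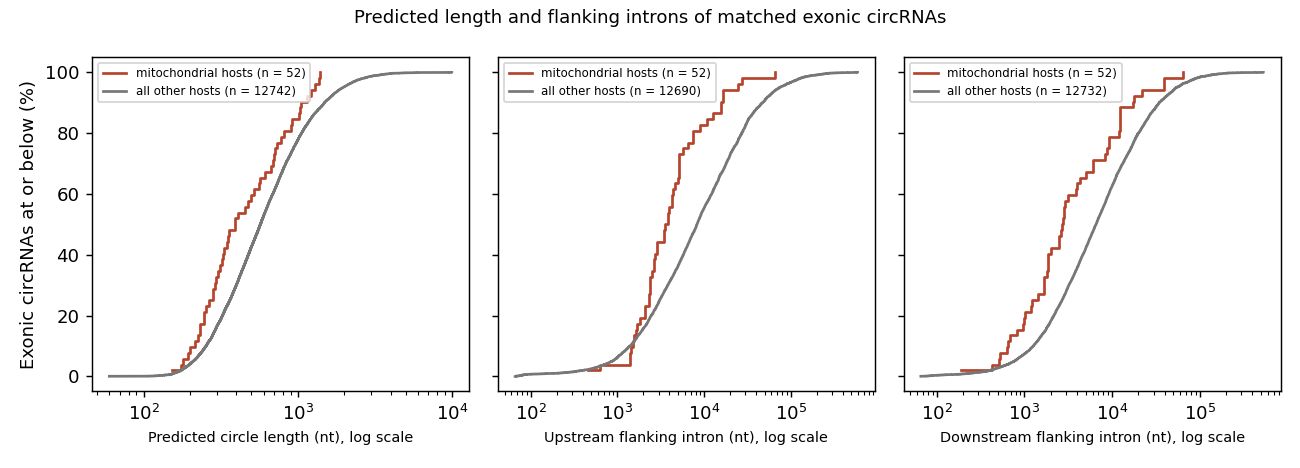
Cumulative share (%) of exonic circRNAs at or below a given predicted length, upstream intron length and downstream intron length, all in nt on log axes, for mitochondrial hosts and for all other named hosts. The curves of the mitochondrial hosts lie mostly to the left, with medians of 393, 3693 and 2742 nt against 572, 8311 and 6575 nt.

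Within a host, circles often shared an end. Of the 19 mitochondrial hosts with at least 2 circles, 10 (52.6%) had circles with a common start or end, against 68.0% of the other hosts. The 19 hosts held 58 circles and the 3099 other hosts 15444. The other hosts thus had more circles each that could share an end, and the 2 shares are not directly comparable. In Rhot1, circles of exons 2 to 6 and 3 to 6 shared their end, as did those of exons 10 to 16 and 15 to 16. In Mfn1, circles of exons 8 to 14 and 8 to 17 shared their start. None of the 68 circles carried a circBase identifier in the table, against 1.59% of those of other hosts.

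A wider list of nuclear genes for mitochondrial proteins and their regulators was read in the same fit. Of its 437 symbols, which include older names of some genes, 126 were listed and 16 were tested. Of the 16, 0 passed, with a median log2 fold change of -0.04 against 0.01 over all tested hosts, 7 above 0 and 9 below. Bckdhb, the E1 beta subunit of the branched-chain 2-oxo acid dehydrogenase, was the most read of the list and had the smallest unadjusted p. Its reads were 43, 44 and 41 in A53T and 31, 31 and 16 in WT, or 1358 ± 113 CPM in A53T and 800.2 ± 148.3 CPM in WT (SD, n = 3 each). The groups did not overlap, and the log2 fold change was 0.74 with a standard error of 0.30 (edgeR quasi-likelihood, adjusted p = 0.870). Bckdhb was the 1 of the 16 whose groups did not overlap, whereas 10.5% of all tested hosts had such groups. It was also the 1 of the 16 with an unadjusted p under 0.05, against 4.58% of all tested hosts. Log2 fold changes were 0.56 for Pdss2 and 0.19 for Mipep, a presequence peptidase gene. They were -0.54 for Oxct1, a ketone body enzyme gene, -0.56 for Pcca, -0.50 for Chchd6, a MICOS gene, and -0.53 for Ttc19. The other abundant hosts of the list, Mthfd2l and Fars2, stood at 0.04 and -0.14, values that changed sign without single libraries, WT replicate 1 for each, A53T replicate 2 for Mthfd2l and A53T replicate 1 for Fars2. The value of Mipep was below 0 when A53T replicate 2 or WT replicate 3 was left out.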

How the data were processed

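Total RNA of the A53T and WT brain samples was enriched for circRNA and sequenced in strand-marking paired-end libraries, per the labels' protocols. The deposited table gives the count of back-splice junction reads per circRNA and library, beside a log2 CPM made by the authors with edgeR, per the file headers, which was recomputed with a prior count of 2 (largest difference 0.122) and not used further. Tools named in the submitters' processing notes are STAR, cutadapt 1.9.3 and edgeR 3.16.5, with build mm39. Not given in the sources used here are the circRNA caller, its annotation and its use of strand. No circRNA is listed with under 2 reads in all libraries. The deposited predicted sequence length is another quantity per circRNA, in nt.

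Counts were fitted with edgeR 4.0.16 in R 4.3.3 (quasi-likelihood, robust, TMM, two-sided, Benjamini-Hochberg over the whole table), per circRNA and summed per host gene, on library totals of all junction reads. circRNAs with no gene name (338, 0.690 to 0.828% of a library's reads) stayed out of the host sums. Features needed at least 5 reads in at least 3 libraries; the threshold was 0.05. Standard errors come from the F statistic, and intervals are 95%. Floors for a count of 0 are 3 reads and cover counting error only, and the labels name no molecular identifiers. Exon runs were matched by span and predicted length to GENCODE M21, an older build whose coordinates are not printed. Alternatives were other scalings and filters, exonic circRNAs only, DESeq2 1.42.0, a replicate block and leaving out each library. The members and lists were chosen with earlier results of these data known. The rule for named genes took all 42 genes, and from the wider list up to 4 tested genes in each direction with the smallest p and the 4 with most reads; 1 gene that this rule names is not reported here. The Ogdh start and exon 4 shares and the Ogdh level without antisense reads were added after the data were seen. Exact permutation tests used scipy 1.17.1, figures matplotlib 3.10.9.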

Additional observations from a re-analysis of the deposited data

How the results depend on the processing

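The counts of 0 called mitochondrial hosts and 0 called mitochondrial circRNAs held under every alternative that was run, the replicate block included (0 and 0). Over the whole table no host was called under any of them, and 1 circRNA, not of a mitochondrial host, was called in each of 3: with at least 10 reads (of 519 tested), without A53T replicate 2 (of 1050) and without A53T replicate 3 (of 1065). The adjusted p of the 4 tested hosts ran from 0.630 to 0.999 and that of the 3 tested circRNAs from 0.469 to 1.00 over these alternatives. With a filter of at least 10 reads, Ogdh alone of the 4 hosts and none of the 3 circRNAs could be fitted, and Rhot1 could not be fitted without A53T replicate 1, WT replicate 1 or WT replicate 3. The share of reads from mitochondrial hosts (A53T minus WT, -0.010 percentage points) lay between -0.031 and 0.009 when single libraries were left out and between -0.019 and -0.006 under the other alternatives. Without single libraries, log2 fold changes ran from -1.12 to 0.0555 for Ndufs1 (above 0 without WT replicate 1), from -0.29 to 0.68 for Rhot1, from 0.07 to 0.73 for Ogdh, from -1.12 to -0.58 for Atp5c1, from -0.97 to 0.0539 for the Ogdh circle that starts in intron 2 (above 0 without A53T replicate 2), from -0.26 to 0.76 for Mipep, from -0.18 to 0.30 for Mthfd2l and from -0.50 to 0.21 for Fars2. With the replicate block, Rhot1 stood at -0.18; the cause was not tested. Libraries with the same number did not vary together (correlation of deviations from group means -0.018 to 0.022 over hosts). With counts this low, that cannot show that the libraries were unpaired. The block added no call, and the main fit had none to lose. Depth limits these results: 41 of the 68 circRNAs had 3 reads or fewer over the 6 libraries.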

Other observations

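Junctions on the mitochondrial genome itself were also listed. They are not in the host sums above but do count in the library totals. The 76 entries of this genome, all without a gene name, held 369 reads, close to the 427 of the 29 nuclear-encoded hosts. They took 0.225%, 0.162% and 0.225% of the reads of A53T replicates 1, 2 and 3 and 0.224%, 0.154% and 0.178% in WT, or 0.204 ± 0.037% in A53T and 0.185 ± 0.035% in WT (SD, n = 3 each), a difference smaller than the SD of either group. Of the entries, 71 were on the plus strand, and the median span was 183 nt. The most read, at positions 1359 to 1562, had 5, 19 and 11 reads in A53T and 11, 17 and 19 in WT. It was the 1 entry deep enough for the test over all circRNAs and stood at -0.44 on the log2 scale, A53T over WT, with a standard error of 0.49 (adjusted p = 0.993, edgeR quasi-likelihood). How these junctions arise, and whether any come from back-splicing, was not tested.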
